A study of Mus musculus with 21 samples.

Results

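Renal artery stenosis (RAS) was compared with Sham surgery in the kidney-resident macrophages (KRM) of the mouse, with 3 RAS and 4 Sham libraries out of 21 macrophage libraries in the series. All libraries came from male C57BL/6J mice of 24 weeks with no other treatment given in the labels, which state a flow sort time of 5 hours. In RAS mice a cuff was tied around the right renal artery about a month before the kidneys were taken, and Sham mice had the surgery without stenosis. KRM were sorted as F4/80+CD64+ cells with intermediate CD11b and CD11c. The other 14 libraries, used here for comparison only, hold CD11chi macrophages (4 RAS, 3 Sham) and CD11clo macrophages (4 RAS, 3 Sham), the monocyte-derived populations of RAS and Sham kidneys. The labels do not say whether the libraries of a group came from separate mice or from pools, so p-values measure the spread between these libraries, which may be technical. The genes described were those for which all 3 RAS libraries lay outside the range of all 4 Sham libraries and which also passed edgeR's quasi-likelihood test at a Benjamini-Hochberg adjusted p under 0.05, and there were 1103 such genes among 12852 tested.

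KRM are long-lived macrophages that settle around the tubules and peritubular capillaries, present antigen on MHC class II, take up dying cells and complexes, and renew themselves within the kidney. Macrophages answer tissue injury with chemokines that recruit monocytes and T cells, with cytokines of the interleukin-1 family, with proteases that remodel matrix, and with growth factors for vessels. Narrowing of the renal artery lowers the perfusion of the whole kidney, so that macrophages, tubules, vessels and stroma are all exposed to it.

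The KRM libraries held RNA of F4/80 and CD64, the macrophage markers of the gate, which KRM share with the other sorted populations. CD11b and CD11c, by which KRM were set apart, are described further on. Adgre1, which encodes F4/80, stood at 1528, 986 and 1320 CPM (counts scaled to library size, as edgeR gives them) in RAS replicates 1, 2 and 3 and at 1453 to 1747 CPM in Sham, and Fcgr1, which encodes CD64, stood at 139 to 220 CPM in RAS and 164 to 218 CPM in Sham. Totals ran from 8739635 to 18592427 counts per library, and Sham replicate 3 was the deepest. The RAS libraries were not alike. RAS replicates 2 and 3 correlated with each other at 0.979 on the log2 CPM scale, whereas RAS replicate 1 correlated with them at 0.816 and 0.845 and with the 4 Sham libraries at 0.913 to 0.929. Replicates 2 and 3 held much RNA of other kidney cells: the summed level of 15 general epithelial markers was 3337 and 2564 CPM there, against 90.4 CPM in replicate 1 and 16.1 to 102 CPM in Sham. All RAS libraries held RNA of T and NK cells, replicate 1 the most: 13 markers other than Cd4, which macrophages also express, summed to 538 CPM in replicate 1, 68.7 and 58.8 CPM in replicates 2 and 3, and 5.08 to 6.89 CPM in Sham. Proximal tubule markers differed in order, at 2931, 1730 and 1639 CPM in RAS replicates 1, 2 and 3 and 1110 to 4684 CPM in Sham. The highest was Sham replicate 3, and none of the 16 was called. Thick ascending limb markers summed to 134, 4318 and 3303 CPM in RAS and to 8.60 to 288 CPM in Sham. The level of RAS replicate 1 is also uncertain in another way: after centring each gene, its column in the deposited log2 table correlated with its counts at only 0.0902, against 0.915 to 0.966 for the other 20 libraries, and which of the columns holds the true library is not known. The counts were used throughout, so every statement about replicate 1, including how evenly a gene changed, rests on its count column. In bulk libraries, fewer cells of a type and less RNA per cell cannot be told apart.

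**Figure D1:**
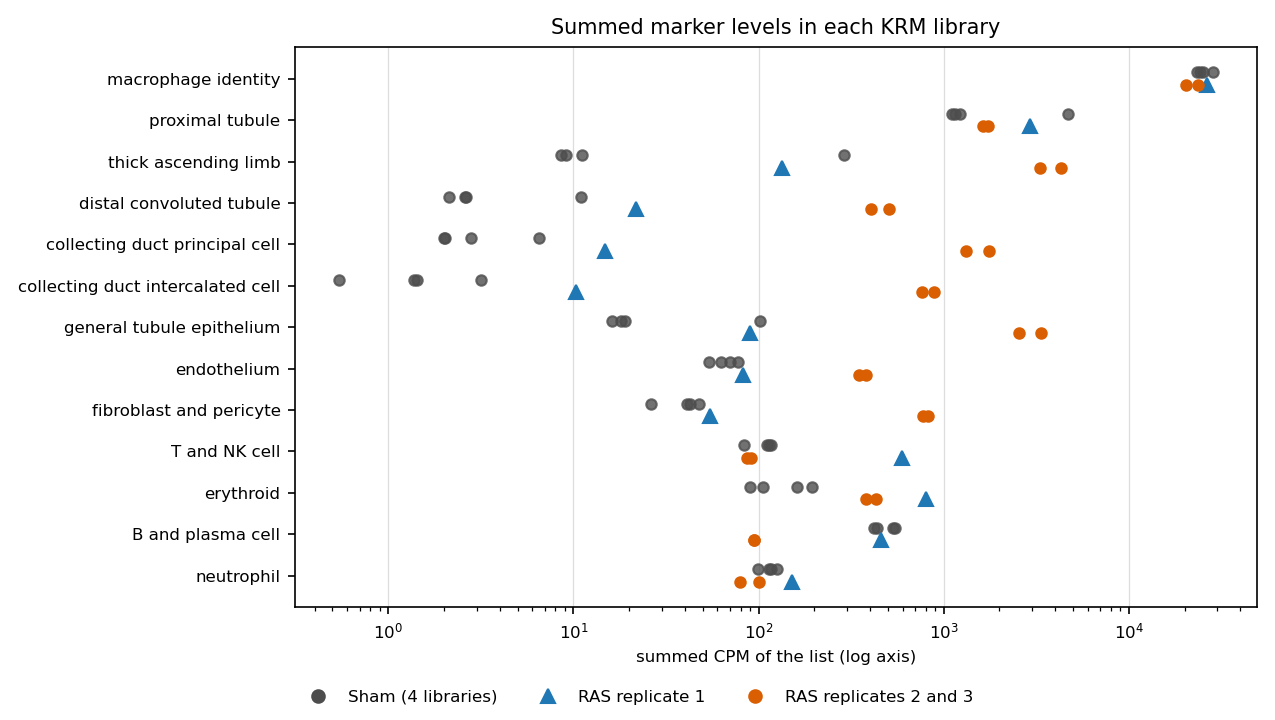
Summed CPM of each marker list (log axis) in the 4 Sham libraries (grey), RAS replicate 1 (blue triangle) and RAS replicates 2 and 3 (orange). Replicates 2 and 3 lie far to the right for distal tubule, collecting duct, general epithelium and fibroblast markers, replicate 1 for T and NK cell markers, whose Sham sums consist mostly of Cd4, and the macrophage identity list spans 20396 to 28575 CPM in all 7.

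Sham replicates 1 and 2 also stood apart from the other pairs. Immunoglobulin variable segments, whose usage marks the B cells of an animal, correlated at 0.982 between these 2 libraries over 146 segments, against a median of 0.192 over all 210 pairs of libraries. The next highest pairs were Sham replicates 2 and 4 at 0.659 and Sham replicates 1 and 4 at 0.615, so Sham replicate 4 was also more like these libraries than most. Over all genes the counts of replicates 1 and 2 differed with a chi-square of 16.4 per degree of freedom, against 7.07 to 40.4 for the other Sham pairs, so they are not copies of the same library, but this does not bear on whether they share an animal. They were kept as separate libraries, and results are also given with their counts summed as 1 library, an alternative chosen after seeing the data.

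Among the 12852 genes, 998 (7.77%) were called higher in RAS and 249 (1.94%) lower at an adjusted p under 0.05. Without regard to the test, all 3 RAS libraries lay above all 4 Sham libraries for 1740 genes (13.5%) and below them for 1589 genes (12.4%). Both criteria together gave 854 genes higher (6.64%) and 249 lower (1.94%). The median log2 fold change over all genes was 0.02. Scaling the libraries by 18 macrophage identity genes moved that median to 0.42 and the calls to 2461 higher and 169 lower. The share of calls in the higher direction went from 80.0% to 93.6%. None of the 1103 genes changed direction, which is largely fixed by their choice for separation in these counts. The balance of directions moved the other way in other fits. The share of calls in the higher direction was 64.6% by DESeq2, 56.0% without RAS replicate 1, and 42.5% by limma on the deposited log2 table, which called 1105 genes higher and 1494 lower.

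The number of calls depended on single libraries. Without RAS replicate 2 or 3, or without Sham replicate 1, 2 or 4, between 22 and 32 genes were called higher and between 4 and 11 lower, whereas leaving out Sham replicate 3 gave 1143 and 193, and leaving out RAS replicate 1 gave 3960 and 3111. With Sham replicates 1 and 2 summed, 35 genes were called higher and 6 lower, all of them among the 1103. The 16 genes called whichever of the 7 libraries was left out also stayed called when Sham replicates 1 and 2 were summed, and they are described first. They were singled out after their values were seen. Of the 16, 11 lost their call under at least 1 other alternative (adjusted p from 0.0504 to 0.105), and Ccl8, Il1a, Fcrls, Serpina3g and Ahnak kept it under each alternative that was run. The losses were of 10 genes with a block for replicate number (adjusted p up to 0.0781), of Ctse in 1 fit over all 6 groups (0.0611), of Hsd11b1 in limma on the deposited log2 table (0.105) and of Spry2 for RAS replicate 1 alone against Sham (0.0523). In the log2 table's column for RAS replicate 1, 15 of the 16 also lay outside the Sham range on the same side and Hsd11b1 did not, and over the 1103 genes this held for 782 of the 992 listed there (78.8%). Of the others, 91 overlapped the Sham range and 119 lay outside it on the opposite side. How many of all genes lie outside the Sham range in that column was not counted, so these shares have no background. Each of the remaining genes lost its call in at least 1 of the 7 fits that leave out a library, and a call given for any of them holds for the full set of libraries.

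For leading genes with a promoter in the table used here, the 250 bases upstream of the annotated start are shown, 4 genes that rose and Fkbp5, which fell. The sequences are from RefSeq for GRCm38.p6 and read 5′ to 3′ on the gene's strand: Ccl8 at chr11:82114935-82115184 on the plus strand, Il1a at chr2:129309973-129310222 on the minus strand, Cxcl9 at chr5:92328080-92328329 on the minus strand, Serpina3g at chr12:104235897-104236146 on the plus strand and Fkbp5 at chr17:28486150-28486399 on the minus strand. The start used for Fkbp5 lies inside the longer GENCODE gene (chr17:28399094-28517527), and that for Serpina3g lies slightly upstream of the GENCODE start. Capitals mark matches to the motifs searched.
Ccl8: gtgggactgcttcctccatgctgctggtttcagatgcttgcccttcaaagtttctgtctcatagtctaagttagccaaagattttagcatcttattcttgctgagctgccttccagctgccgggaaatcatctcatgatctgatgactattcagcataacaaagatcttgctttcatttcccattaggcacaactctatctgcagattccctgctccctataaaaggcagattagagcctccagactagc
Il1a: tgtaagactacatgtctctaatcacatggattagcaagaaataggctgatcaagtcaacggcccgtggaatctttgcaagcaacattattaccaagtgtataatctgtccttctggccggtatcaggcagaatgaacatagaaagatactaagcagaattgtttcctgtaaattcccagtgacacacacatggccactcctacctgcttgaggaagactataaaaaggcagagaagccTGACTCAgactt
Cxcl9: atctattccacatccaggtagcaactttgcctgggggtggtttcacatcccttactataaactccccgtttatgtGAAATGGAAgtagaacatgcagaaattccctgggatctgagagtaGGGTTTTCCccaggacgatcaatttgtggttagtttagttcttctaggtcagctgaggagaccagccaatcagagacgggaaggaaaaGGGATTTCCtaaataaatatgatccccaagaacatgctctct
Serpina3g: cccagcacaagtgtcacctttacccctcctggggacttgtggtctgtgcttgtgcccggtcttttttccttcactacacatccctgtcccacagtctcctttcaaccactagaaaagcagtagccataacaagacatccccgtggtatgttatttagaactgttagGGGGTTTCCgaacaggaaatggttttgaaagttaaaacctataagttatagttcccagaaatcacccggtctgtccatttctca
Fkbp5: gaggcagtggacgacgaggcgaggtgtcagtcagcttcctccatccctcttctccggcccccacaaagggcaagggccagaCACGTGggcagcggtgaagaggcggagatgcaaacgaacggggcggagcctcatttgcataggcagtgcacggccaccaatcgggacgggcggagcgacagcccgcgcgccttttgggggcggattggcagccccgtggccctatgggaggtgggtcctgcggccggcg

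Both strands were searched for GGGNNTTCC (NF-kB), TGACTCA (AP-1), GAAANNGAA (interferon-stimulated response element), ACGTG (hypoxia response element), TGACGTCA (cyclic AMP response element), GAGGAAGT (PU.1) and TCACGTGA (CLEAR E-box, which contains ACGTG). The Il1a window held TGACTCA 12 bases before the start. The Cxcl9 window held GAAATGGAA at 175 bases and GGGTTTTCC and GGGATTTCC at 130 and 42 bases before the start, and the Serpina3g window held GGGGTTTCC at 84 bases. In the Fkbp5 window ACGTG was read on both strands at overlapping positions, and the Ccl8 window held none of these letters. Over 32851 windows of the same length, 4.98% held the NF-kB letters, 4.46% the AP-1 letters, 7.13% the interferon letters, 16.6% ACGTG, 1.55% TGACGTCA, 2.44% GAGGAAGT and 0.785% TCACGTGA. Over the 11394 windows of tested genes, 6.32% held the NF-kB letters, 3.14% the AP-1 letters, 6.36% the interferon letters and 21.3% ACGTG.

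The 13 genes that rose included 2 chemokines and interleukin-1 alpha (genes were placed on mm10 by the GENCODE vM21 annotation). Ccl8 (chr11:82115185-82116799), which encodes a chemokine that attracts monocytes and lymphocytes, stood at 112, 157 and 166 CPM in RAS replicates 1, 2 and 3 and at 4.63, 2.70, 3.23 and 2.12 CPM in Sham replicates 1 to 4. The lowest RAS library was far above the highest Sham library, and RAS replicate 1 was close to the others. The log2 fold change was 5.52 ± 0.28 (SE; n = 3 and 4; adjusted p = 0.000881 by edgeR's quasi-likelihood test), or 45.9-fold, the smallest adjusted p in this comparison. Il1a (chr2:129299610-129309972), which encodes interleukin-1 alpha, an alarm cytokine released by stressed or dying cells, stood at 40.2, 75.7 and 84.2 CPM in RAS and at 2.70 to 3.51 CPM in Sham. Its log2 fold change was 4.45 ± 0.29 (adjusted p = 0.0021), and RAS replicate 1 was the lowest RAS library. Cxcl9 (chr5:92321347-92328079), an interferon-gamma-induced chemokine for activated T cells, stood at 66.8, 52.9 and 58.3 CPM in RAS and at 21.3, 17.2, 16.8 and 23.5 CPM in Sham (log2 fold change 1.59 ± 0.17, adjusted p = 0.0101). The 3 RAS libraries were within a narrow range, and RAS replicate 1 was the highest.

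**Figure D2:**
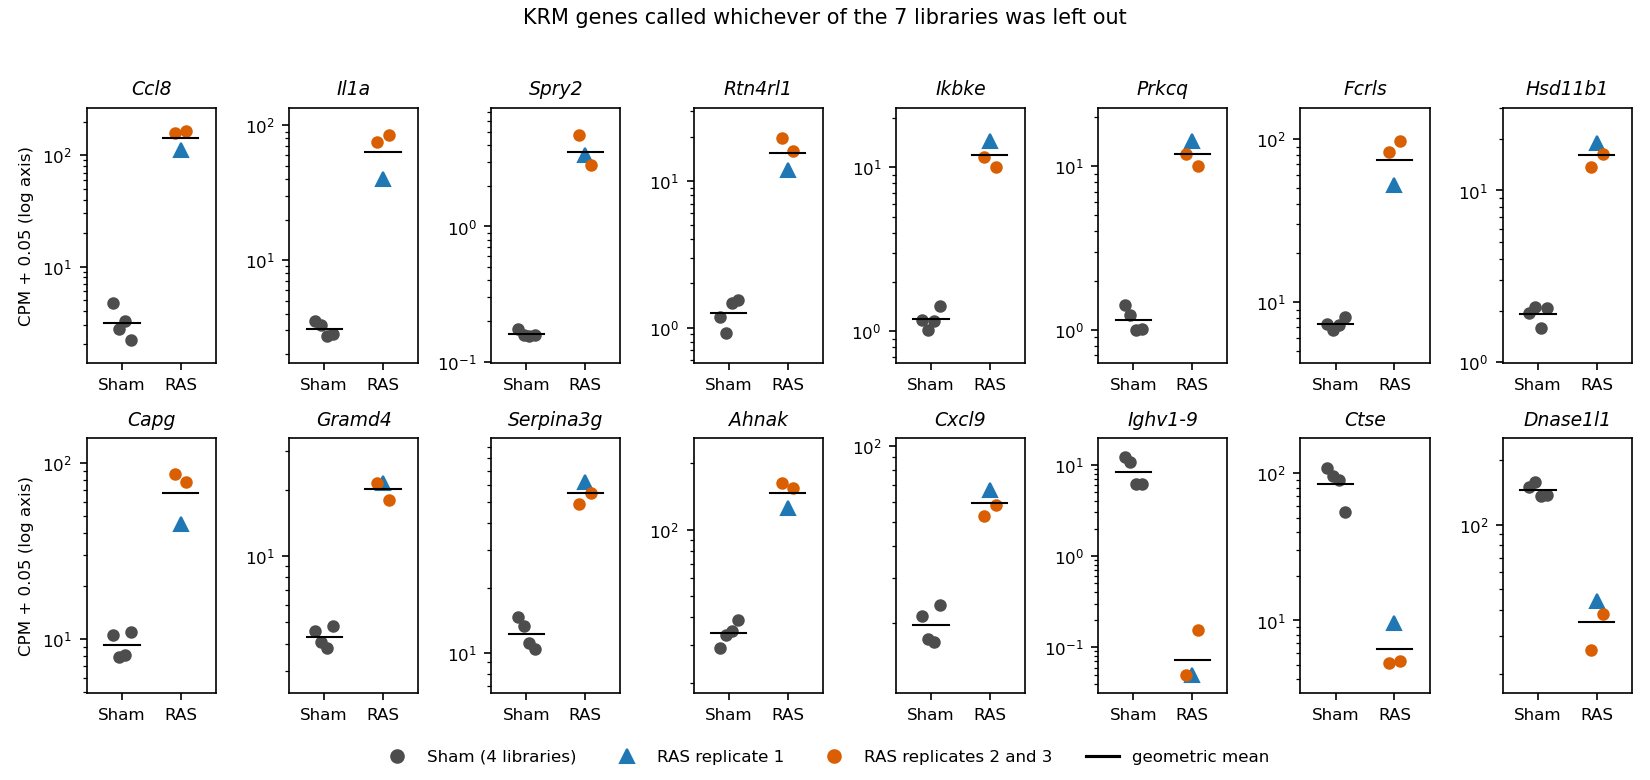
Level of each of the 16 genes called whichever library was left out (CPM plus 0.05, log axes with separate ranges), for 4 Sham libraries (grey), RAS replicate 1 (blue triangle) and RAS replicates 2 and 3 (orange), with lines at the geometric means. In every panel the 3 RAS libraries lie on 1 side of the 4 Sham libraries and RAS replicate 1 lies near the other RAS libraries.

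Fcrls (chr3:87250758-87263738), an Fc receptor-like gene known from microglia, stood at 51.9, 82.7 and 97 CPM in RAS and at 7.26, 6.71, 7.20 and 8.07 CPM in Sham (log2 fold change 3.40 ± 0.22, adjusted p = 0.0021). The Sham libraries were nearly equal. Ikbke (chr1:131254343-131279606), which encodes a kinase of the innate interferon and NF-kB pathways, stood at 14.4, 11.5 and 10.1 CPM in RAS and at 0.974 to 1.38 CPM in Sham (log2 fold change 3.37 ± 0.28, adjusted p = 0.00417). Prkcq (chr2:11172108-11301222), which encodes protein kinase C theta, best known from T cells, stood at 14.1, 11.8 and 9.96 CPM in RAS and at 0.952 to 1.38 CPM in Sham (log2 fold change 3.42 ± 0.28, adjusted p = 0.00417). Prkcq was highest in RAS replicate 1, by less than the T cell genes described further on. T and NK cell markers other than Cd4 summed to 538, 68.7 and 58.8 CPM in RAS and 5.08 to 6.89 CPM in Sham. Their part in the rise of Prkcq was not tested. Spry2 (chr14:105891947-105896819), a feedback inhibitor of receptor tyrosine kinase signalling, stood at 3.32, 4.67 and 2.80 CPM in RAS and at 0.106 to 0.125 CPM in Sham, where it had 1 or 2 counts per library (log2 fold change 4.89 ± 0.44, adjusted p = 0.0056). Rtn4rl1 (chr11:75193783-75267769), which encodes a receptor for myelin-associated growth inhibitors, stood at 11.9, 19.6 and 16.1 CPM in RAS and at 0.865 to 1.49 CPM in Sham (log2 fold change 3.67 ± 0.31, adjusted p = 0.00417).

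The others that rose were Capg, Ahnak, Hsd11b1, Serpina3g and Gramd4. Capg (chr6:72544391-72562983), which caps actin filaments, stood at 45.1, 86.2 and 77.6 CPM in RAS and at 7.79 to 10.9 CPM in Sham (log2 fold change 2.90 ± 0.25, adjusted p = 0.00475). Ahnak (chr19:8989284-9076914), a very large scaffold protein beneath the plasma membrane, stood at 126, 163 and 155 CPM in RAS and at 28.8 to 38.9 CPM in Sham (log2 fold change 2.12 ± 0.15, adjusted p = 0.00246). RAS replicate 1 was the lowest RAS library for both. Hsd11b1 (chr1:193221634-193264075), whose enzyme regenerates active glucocorticoid from its inactive form, stood at 18.8, 13.7 and 16.2 CPM in RAS and at 1.53 to 2.06 CPM in Sham (log2 fold change 3.12 ± 0.24, adjusted p = 0.00367). Serpina3g (chr12:104236245-104241939), a serine protease inhibitor of a mouse multigene family whose members can share reads, stood at 61.8, 48.7 and 54.9 CPM in RAS and at 10.3 to 14.5 CPM in Sham (log2 fold change 2.17 ± 0.17, adjusted p = 0.00367). RAS replicate 1 was the highest library for both. Gramd4 (chr15:86057695-86137634) stood at 21.3, 21.4 and 17.9 CPM in RAS and at 3.76 to 4.78 CPM in Sham (log2 fold change 2.25 ± 0.19, adjusted p = 0.00462).

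Of the 16 genes, 3 fell. Ctse (chr1:131638306-131675505), which encodes cathepsin E, an endosomal aspartic protease of antigen-presenting cells, stood at 9.53, 5.05 and 5.29 CPM in RAS and at 108, 96.4, 90.6 and 54.2 CPM in Sham (log2 fold change -3.72 ± 0.34, adjusted p = 0.00593), a level 13.2-fold higher in Sham. Dnase1l1 (chrX:74273217-74282337), a member of the DNase I family, stood at 43.8, 26.0 and 38.2 CPM in RAS and at 135 to 158 CPM in Sham (log2 fold change -2.01 ± 0.19, adjusted p = 0.00773). No RAS library reached the Sham range for either gene. The third, the immunoglobulin segment Ighv1-9, had 0, 0 and 0.104 CPM in RAS and 6.08 to 12.1 CPM in Sham (adjusted p = 0.0101). It had 1 count over all RAS libraries, so the fitted fold change depends on the prior count and is not given. Such segments are B-lineage genes with near-identical copies, and 13 of the 67 segments tested were called lower without overlap and 1 higher. These segments are the ones that were alike between Sham replicates 1 and 2, and the summed B and plasma cell markers were 456 CPM in RAS replicate 1, 94.9 and 94.5 CPM in RAS replicates 2 and 3, and 421 to 544 CPM in Sham.

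A grouping chosen after seeing the data separated genes with like levels in all RAS libraries from the rest. A gene was counted as even if RAS replicate 1 was within 2-fold of the mean of RAS replicates 2 and 3. Of the 854 higher genes, 340 (39.8%) were even, 432 (50.6%) were higher in replicates 2 and 3, and 82 (9.60%) were higher in replicate 1. Of the 249 lower genes, 218 (87.6%) were even, 30 were higher in replicate 1 and 1, Igkv10-96, was higher in replicates 2 and 3. All 16 genes above were even. The median log2 fold change was 1.34 for the even higher genes and -0.92 for the even lower genes. A gene that changes by about 2-fold can hardly leave the even range, even with RAS replicate 1 nearest to Sham. The shares of even genes among higher and lower genes therefore cannot be compared.

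**Figure D3:**
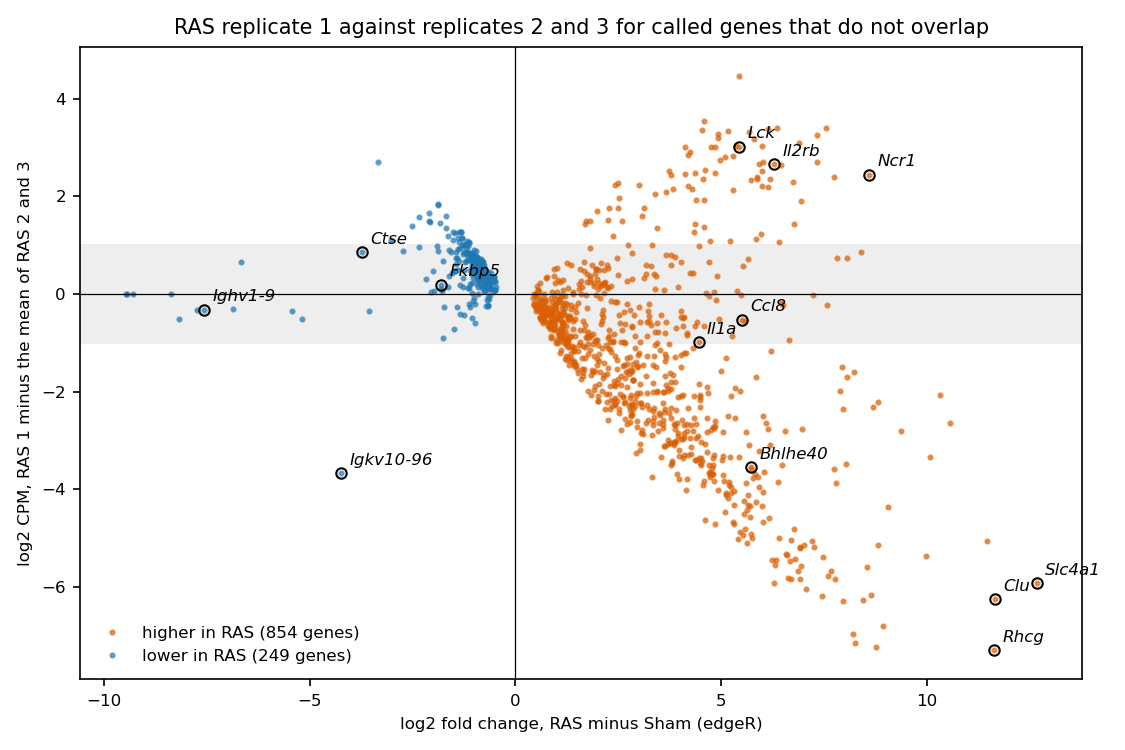
For the 1103 genes, the log2 fold change of RAS minus Sham (horizontal) against log2 CPM in RAS replicate 1 minus the mean of RAS replicates 2 and 3 (vertical), with genes higher in RAS in orange and lower in blue and the even range of 2-fold shaded. Ccl8, Il1a, Ctse and Fkbp5 lie within the band, Il2rb and Lck above it, and Clu, Rhcg and Bhlhe40 below it.

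Among the named even genes, Ablim1, an actin-binding protein, stood at 36.9, 56.0 and 46.4 CPM in RAS and at 0.433 to 5.13 CPM in Sham (log2 fold change 4.02 ± 0.60, adjusted p = 0.0182). Cd38, a surface enzyme that consumes NAD, stood at 32.8, 38.5 and 53.4 CPM in RAS and at 7.32 to 12.6 CPM in Sham (log2 fold change 2.14 ± 0.25, adjusted p = 0.0117). Fam102a stood at 38.6, 85.9 and 67.3 CPM in RAS and at 11.4 to 14.7 CPM in Sham (log2 fold change 2.30 ± 0.26, adjusted p = 0.0117).

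The lower genes with the widest gap between the groups included Fkbp5 (chr17:28399094-28517527), a co-chaperone of the glucocorticoid receptor and a classic glucocorticoid-induced gene. It stood at 34.1, 33.8 and 26.2 CPM in RAS and at 114, 115, 129 and 82.1 CPM in Sham (log2 fold change -1.81 ± 0.19, adjusted p = 0.0109), and it lost its call without Sham replicate 1 (adjusted p = 0.0517) and with a replicate block (0.0551). Flt3, a cytokine receptor of dendritic cell progenitors, stood at 11.1, 5.05 and 3.32 CPM in RAS and at 30.4 to 42.0 CPM in Sham (log2 fold change -2.52 ± 0.40, adjusted p = 0.021). Fam40b stood at 8.09 to 10.3 CPM in RAS and at 24.7 to 39.3 CPM in Sham, and Lifr, the receptor chain for leukemia inhibitory factor, at 241, 87.9 and 101 CPM in RAS and at 419 to 509 CPM in Sham. For Lifr, RAS replicate 1 lay nearest to Sham. Smaller even falls were measured for Adamtsl4, Rnf150, Matn2, Kif3c, Bmf, a pro-apoptotic BCL2-family gene, and Sult1a1, with log2 fold changes between -0.92 (Kif3c) and -1.36 (Sult1a1). Srpk3 and Adrb1, which encodes the beta-1 adrenergic receptor, fell with RAS replicate 1 closest to Sham, at 76.1 CPM for Srpk3 against 16.7 and 27.7 CPM in the other RAS libraries and 140 to 153 CPM in Sham. Adrb1 stood at 27.6, 6.71 and 8.40 CPM in RAS and at 46.0 to 59.6 CPM in Sham. Igkv10-96, a light chain segment, stood at 0, 2.43 and 1.97 CPM in RAS and at 23.7 to 31.9 CPM in Sham.

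Lists of genes by function were read against the shares of all genes, 6.64% higher and 1.94% lower, and the counts that follow are of genes that were both called and not overlapping. Of 21 chemokines tested, 7 rose and Ccl3 fell. Ccl2 and Ccl7, monocyte chemoattractants, rose most in RAS replicates 2 and 3: Ccl2 stood at 60.4, 255 and 301 CPM in RAS and at 22.8 to 51.1 CPM in Sham, and Ccl7 at 39.0, 245 and 308 CPM in RAS and at 4.60 to 17.6 CPM in Sham. With RAS replicate 1 as the only RAS library the log2 fold change of Ccl2 was 0.67 and that of Ccl7 was 1.81. Ccl22, a chemokine of activated macrophages and dendritic cells, rose more evenly, at 8.78, 20.02 and 15.7 CPM against 1.30 to 3.72 CPM. Cxcl13, a B cell attractant, stood at 3.00, 25.4 and 28.4 CPM against 0.106 to 0.501 CPM, and Cxcl12 at 9.53, 31.8 and 31.5 CPM against 2.92 to 4.46 CPM. Ccl2, Ccl7, Cxcl12 and Cxcl13 were highest in RAS replicates 2 and 3. There general epithelial markers summed to 3337 and 2564 CPM and fibroblast and pericyte markers to 774 and 823 CPM. The part of that RNA was not tested. Ccl3, a macrophage inflammatory protein, was lower in every RAS library, at 593 to 702 CPM against 963 to 1496 CPM (log2 fold change -1.01 ± 0.19, adjusted p = 0.0269). Its neighbour Ccl4 overlapped between the groups, at 796 to 1188 CPM in RAS and 1126 to 2705 CPM in Sham.

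Of 19 inflammatory cytokines and receptors, 9 rose and none fell. Il1b, at 1234, 3085 and 3652 CPM in RAS and 1017 to 1163 CPM in Sham, and Il1rn, the interleukin-1 receptor antagonist, at 9.42, 126 and 154 CPM against 1.49 to 2.38 CPM, were highest in RAS replicates 2 and 3. Il17ra, the receptor of interleukin-17A, had the opposite order, with 69.8 CPM in RAS replicate 1, 44.3 and 44.2 CPM in the others and 14.3 to 20.3 CPM in Sham (log2 fold change 1.66 ± 0.22, adjusted p = 0.014). Osm, which encodes oncostatin M, stood at 59.9, 104 and 147 CPM against 21.6 to 28.3 CPM. Il6 was low throughout, at 1.29, 16.4 and 20.1 CPM against 0.106 to 0.865 CPM. Csf2, which encodes GM-CSF, had 16, 15 and 20 counts in RAS and none in the 4 Sham libraries, at least 26.6-fold higher if the Sham libraries together are set at 3 counts. Tnf was not called, at 57.8 to 152 CPM in RAS and 74.9 to 247 CPM in Sham. With RAS replicate 1 alone against Sham, Il1b had a log2 fold change of 0.16 (adjusted p = 0.834) and Il6 of 1.39 (adjusted p = 0.843). RAS replicates 2 and 3, where both were highest, were the libraries with 3337 and 2564 CPM of general epithelial markers, whose part was not tested.

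Of 22 genes of the NF-kB pathway, 3 rose. These were Icam1, an adhesion molecule, at 176, 290 and 286 CPM against 128 to 162 CPM, Tnfaip2 and Nfkbid, an atypical IkB protein. Nfkb1 itself was not called, at 37.3 to 64.6 CPM in RAS and 47.7 to 67.7 CPM in Sham. Of 24 immediate early genes, which also respond to enzymatic dissociation, 8 rose and 2 fell. Nr4a1 stood at 196, 860 and 867 CPM against 101 to 136 CPM, Fosl2 at 14.9, 133 and 162 CPM against 5.13 to 6.06 CPM, and Egr2 and Ier3 had the same order with RAS replicate 1 lowest. With RAS replicate 1 alone against Sham, log2 fold changes were 0.15 for Tnfaip2, 0.29 for Icam1, 0.69 for Nr4a1 and 1.38 for Fosl2. General epithelial markers summed to 3337 and 2564 CPM in RAS replicates 2 and 3, against 90.4 CPM in replicate 1. The part of that RNA in the NF-kB and immediate early rises was not tested. Jun fell, at 3094, 1854 and 2099 CPM against 4097 to 6873 CPM, as did Ier5. Of 19 heat shock and unfolded protein genes, 2 fell and none rose: Hspa1a and Hspa1b, near-identical copies whose reads cannot be assigned with certainty. Hspa1b stood at 6615, 2375 and 3120 CPM against 9942 to 13077 CPM.

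Of 46 interferon-stimulated genes, 7 rose and none fell, and the median log2 fold change of the list was -0.11 against 0.02 for all genes. The 7 were Cxcl9, Gbp2, Gbp5, Irgm1, Iigp1, Ifi44 and Rsad2, of which Gbp2, Gbp5, Irgm1 and Iigp1 encode interferon-induced GTPases. Gbp2 stood at 55.2, 73.3 and 81.4 CPM against 22.7 to 35.7 CPM, and Iigp1 at 69.2, 74.3 and 87.0 CPM against 24.9 to 43.8 CPM. All 7 were even across the RAS libraries. Mx1, a marker of type I interferon, was not called, at 18.2 to 53.9 CPM in RAS and 44.0 to 67.8 CPM in Sham. None of 15 interferon regulators and receptors was called, and the most abundant, Ifngr1, stood at 416 to 726 CPM in RAS and 709 to 875 CPM in Sham, with Irf8 at 258 to 574 CPM and 574 to 713 CPM.

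**Figure D4:**
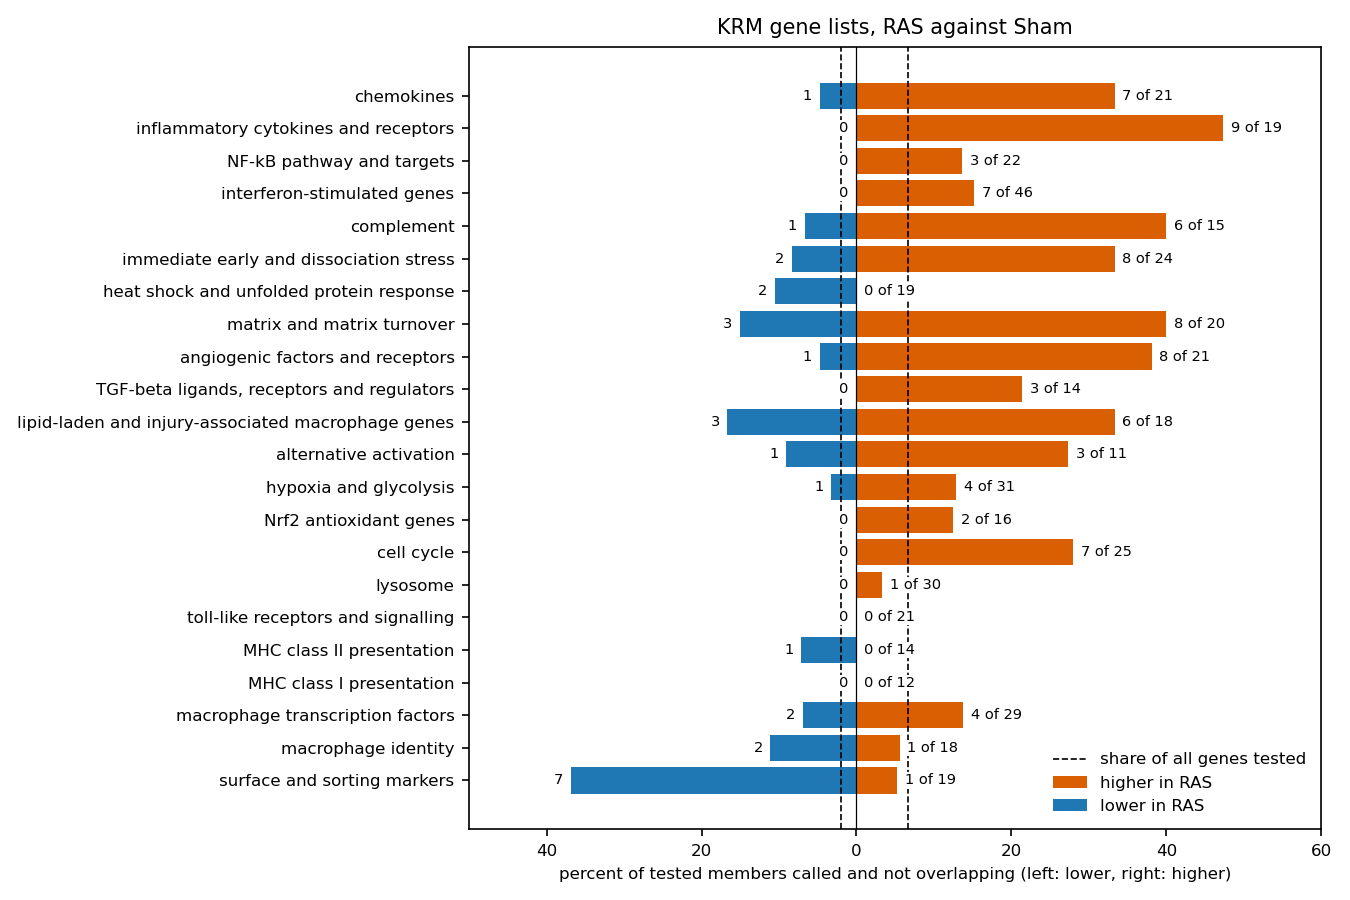
Percent of the tested members of each list of macrophage and response genes (cell type marker lists and genes named by the study are not drawn) that were called and not overlapping, higher in RAS (orange, to the right) or lower (blue, to the left), with counts beside the bars and dashed lines at the shares of all genes tested, 6.64% and 1.94%. Inflammatory cytokines (9 of 19), complement (6 of 15) and matrix genes (8 of 20) reach furthest to the right of the lists drawn and surface markers (7 of 19) furthest to the left.

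The list of MHC class II presentation has 14 genes and includes Cd86, Cd80, Cd40 and Ctss. Of these 14, 7 lay below all Sham libraries in every RAS library, against 12.4% of all genes. The summed list was 69342 to 100898 CPM in RAS and 105010 to 156311 CPM in Sham without overlap. The list median was a log2 fold change of -0.52. Scaling by macrophage identity genes moved the median of all genes from 0.02 to 0.42. It cut the genes lying below Sham without overlap from 1589 to 538. The sums were lowest in RAS replicates 2 and 3, at 69342 and 78631 CPM, where general epithelial markers summed to 3337 and 2564 CPM, and the part of that RNA was not tested. RAS replicate 1, at 100898 CPM, lay just below the lowest Sham library. Only the costimulator Cd86 was also called, and it fell, at 332, 180 and 231 CPM in RAS and 461 to 518 CPM in Sham (log2 fold change -1.0 ± 0.21, adjusted p = 0.0328). Cd74, the invariant chain, stood at 52735, 35916 and 40857 CPM in RAS and 54527 to 83716 CPM in Sham, below the Sham range in all 3 libraries but with an adjusted p of 0.121. None of 12 MHC class I genes was called, and H2-D1 stood at 3785 to 5079 CPM in RAS and 5301 to 7201 CPM in Sham, with B2m at 2805 to 3752 CPM and 3919 to 5437 CPM. Of 21 toll-like receptor genes none was called, with Unc93b1 at 1170 to 2177 CPM and 1871 to 2603 CPM and Cd14 at 1084 to 2398 CPM and 1520 to 2201 CPM. Of 16 iron and heme genes none was called, with Fth1 at 5222 to 6178 CPM and 5306 to 7202 CPM and Ftl1 at 4445 to 4741 CPM and 3956 to 5406 CPM.

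Of 19 surface and sorting markers, 7 fell and 1 rose. Itgax, which encodes the sorting marker CD11c, stood at 287, 161 and 207 CPM in RAS and at 362 to 437 CPM in Sham (log2 fold change -0.86 ± 0.20, adjusted p = 0.0422). Icosl, a costimulatory ligand, stood at 150, 80.1 and 91.1 CPM against 229 to 250 CPM, Spn, which encodes CD43, at 85.4, 39.9 and 43.7 CPM against 114 to 143 CPM, and Fcgr4 at 272, 160 and 196 CPM against 368 to 482 CPM. Cd4 stood at 59.4, 21.9 and 28.0 CPM against 77.9 to 109 CPM and Clec5a also fell. RAS replicate 1 was the closest to Sham for each of these. The lowest levels were in the libraries where general epithelial markers summed to 3337 and 2564 CPM, against 90.4 CPM in RAS replicate 1 and 16.1 to 102 CPM in Sham, and the part of that RNA was not tested. Ly6c1, which rose, stood at 5.35, 94.4 and 73.1 CPM against 1.69 to 3.25 CPM. It is also expressed by endothelium and is nearly identical to a neighbouring family member. Itgam, which encodes CD11b, was not called, at 246 to 308 CPM in RAS and 253 to 348 CPM in Sham.

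Of 18 macrophage identity genes, Lyz2 rose and 2 fell, Fcgr4 among them. The log2 fold change was negative for 15, and 10 lay below all Sham libraries in every RAS library, against 12.4% of all genes. Lyz2, which encodes the macrophage lysozyme, stood at 7861, 7976 and 8836 CPM in RAS and 3788 to 4740 CPM in Sham (log2 fold change 0.99 ± 0.15, adjusted p = 0.0184), and was even. Csf1r, the receptor for the macrophage growth factor CSF1, stood at 3352, 1725 and 2301 CPM against 3650 to 3803 CPM, and Cx3cr1, the fractalkine receptor, at 1054, 458 and 578 CPM against 1094 to 1186 CPM. All RAS libraries were below Sham for these receptors, but neither was called (adjusted p = 0.11 and 0.119). Of 11 genes of the core macrophage signature named by the study, none rose and 2 fell, Fcgr4 among them. All 11 had negative log2 fold changes (median -0.71), and 7 lay below all Sham libraries in every RAS library. The summed list was 8078, 4207 and 5411 CPM in RAS replicates 1, 2 and 3 and 8776 to 9502 CPM in Sham. It was lowest in the libraries with most general epithelial RNA, whose part was not tested. Of 29 macrophage transcription factors, 4 rose and 2 fell, Runx1 among them. Cebpb stood at 226, 390 and 427 CPM against 140 to 217 CPM, Bhlhe40, a basic helix-loop-helix repressor, at 44.3, 577 and 470 CPM against 4.51 to 8.22 CPM, and Runx1 at 223, 111 and 148 CPM against 294 to 356 CPM. Sall3 had 10, 59 and 25 counts in RAS and none in Sham, at least 47.6-fold higher with the same floor of 3 counts over the Sham group. Of 18 resident tissue macrophage genes, Trem2 rose and Cd81 fell.

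Of 15 complement genes, 6 rose and C2 fell. Cfp, which encodes properdin, rose evenly, at 56.3, 91.9 and 95.3 CPM in RAS and 24.4 to 29.0 CPM in Sham (log2 fold change 1.57 ± 0.19, adjusted p = 0.014). C3, the central component, stood at 72.4, 247 and 276 CPM against 17.2 to 28.1 CPM. C1ra, C1s, C4b and the decay-accelerating factor Cd55 also rose, with C1ra and C1s highest in RAS replicates 2 and 3. In these libraries general epithelial markers summed to 3337 and 2564 CPM and fibroblast and pericyte markers to 774 and 823 CPM, against 90.4 and 54.5 CPM in RAS replicate 1, and their part was not tested. With RAS replicate 1 alone against Sham, the log2 fold change was 0.59 for C1s (adjusted p = 0.87) and 0.59 for C1ra (adjusted p = 0.673). C1qa, a macrophage product, stood at 2164, 1475 and 1638 CPM against 2740 to 4269 CPM, below the Sham range in all 3 RAS libraries, with an adjusted p of 0.0526.

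Of 18 lipid-laden and injury-associated macrophage genes, 6 rose and 3 fell. Gpnmb stood at 10.5, 18.1 and 20.6 CPM in RAS and 0 to 1.06 CPM in Sham, Fabp5, a fatty acid binding protein, at 14.4, 22.7 and 21.2 CPM against 1.91 to 3.57 CPM, and Trem2, a lipid-sensing receptor, at 69.9, 60.1 and 71.8 CPM against 25.4 to 37.1 CPM. These 3 and Abca1, a cholesterol exporter at 118, 85.7 and 119 CPM against 41.9 to 65.7 CPM, were even. Fabp5 and Trem2 also stayed called with Sham replicates 1 and 2 summed, at log2 fold changes of 2.72 and 1.23. Cd36, a scavenger receptor, and Pparg, a lipid-activated nuclear receptor, fell, Pparg standing at 54.2, 33.3 and 35.9 CPM against 62.7 to 79.4 CPM. Cd36 was the only call among 16 apoptotic cell uptake genes, at 419, 234 and 316 CPM against 498 to 626 CPM. Of 30 lysosome genes, Ctsd, which encodes cathepsin D, was the only call, at 818, 1429 and 1385 CPM against 336 to 374 CPM (log2 fold change 1.77 ± 0.21, adjusted p = 0.0117). Of 11 alternative activation genes, Retnla, Clec10a and Ear2 rose and Chil3 fell, and Ear2 and Chil3 belong to families whose members can share reads.

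Several cell cycle genes rose, each evenly across the 3 RAS libraries. Of 25 tested, 7 rose and none fell: Mki67, Top2a, Ccnb1, Ccnb2, Ccna2, Birc5 and Rrm2. Mki67, which encodes the proliferation antigen Ki-67, stood at 19, 16.9 and 17.5 CPM in RAS and 4.88 to 6.38 CPM in Sham (log2 fold change 1.63 ± 0.19, adjusted p = 0.0117). Top2a, the DNA topoisomerase of dividing cells, stood at 25.4, 16.2 and 19.6 CPM against 5.19 to 8.89 CPM. The summed list spanned 486 to 530 CPM in RAS and 364 to 419 CPM in Sham without overlap, and Mki67 stayed called with Sham replicates 1 and 2 summed (log2 fold change 1.67). T and NK cell markers other than Cd4 were also above Sham in all RAS libraries, at 538, 68.7 and 58.8 CPM against 5.08 to 6.89 CPM, and their part was not tested.

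Matrix genes moved in both directions. Of 20, 8 rose and 3 fell. Mmp9, a gelatinase, stood at 13.3, 6.51 and 8.19 CPM in RAS and 0.849 to 1.53 CPM in Sham, and Adam8 at 17.2, 17.4 and 12.3 CPM against 2.86 to 4.87 CPM. Mmp2 stood at 8.46, 22.7 and 25.4 CPM against 0.876 to 1.41 CPM and stayed called with Sham replicates 1 and 2 summed (log2 fold change 4.02). Mmp12, the macrophage elastase, fell, at 559, 290 and 419 CPM against 912 to 1376 CPM, with Mmp13 at 442, 319 and 420 CPM against 592 to 819 CPM and Tgfbi at 790, 485 and 600 CPM against 1139 to 1192 CPM. Spp1, which encodes osteopontin and is made by injured tubules as well as macrophages, stood at 163, 8366 and 5924 CPM against 14.4 to 117 CPM, and Sparc at 8.46, 207 and 222 CPM against 4.88 to 7.51 CPM. Both rose almost entirely in the RAS libraries with tubule and stromal RNA, where the 14 fibroblast and pericyte markers summed to 774 and 823 CPM against 54.5 CPM in RAS replicate 1 and 26.1 to 47.9 CPM in Sham. The part of that RNA in these rises was not tested. Of 14 TGF-beta genes, Tgfbr3, Smad7 and Ltbp3 rose, each with RAS replicate 1 lowest.

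Of 21 angiogenic factors and receptors, 8 rose and Pdgfb fell. Vegfa, the main endothelial growth factor, stood at 12.3, 93.5 and 92.8 CPM in RAS and 1.41 to 9.68 CPM in Sham, and its log2 fold change of 3.95 ± 0.84 (adjusted p = 0.0342) was 1.52 with RAS replicate 1 as the only RAS library. Flt1, a VEGF receptor of endothelium, stood at 2.46, 16.5 and 16.8 CPM against 0.626 to 0.955 CPM. Nrp1, a VEGF co-receptor, was even, at 210, 182 and 215 CPM against 124 to 144 CPM (log2 fold change 0.55 ± 0.12, adjusted p = 0.0358). Pdgfb stood at 101, 67.7 and 78.3 CPM against 127 to 181 CPM. The 13 endothelial markers other than Flt1 summed to 80.0, 366 and 332 CPM in RAS and to 53.2 to 76.7 CPM in Sham. General epithelial markers summed to 90.4, 3337 and 2564 CPM in RAS and to 16.1 to 102 CPM in Sham. The part of either RNA in these rises was not tested. Of 31 hypoxia and glycolysis genes, Vegfa, Hk1, Pfkp and Egln3 rose and Pfkfb4 fell. Pfkp, a glycolytic enzyme, stood at 87.5, 136 and 131 CPM against 58.7 to 63.8 CPM, and Egln3, a HIF prolyl hydroxylase, had 11, 82 and 52 counts in RAS and none in Sham, at least 73.6-fold higher with the floor of 3 counts over the Sham group. Of 16 Nrf2 antioxidant genes, Srxn1 and Slc7a11 rose, Srxn1 at 18.5, 124 and 122 CPM against 9.74 to 14.1 CPM. Like Vegfa, Egln3 and Srxn1 were highest in RAS replicates 2 and 3, the libraries with most general epithelial RNA, whose part was not tested.

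Of 31 RAS genes the study names, 21 were tested, and 11 rose without overlap. The study chose these on the same samples, so their count is not independent evidence of direction. They were Vegfa, Lcn2, Spp1, Pecam1, Tgfbr3, Ccl2, Ccl7, Ccl8, Cdh1, Il6 and Il1b, and Ccl8 was the only even gene among them. The summed list was 2559 CPM in RAS replicate 1, 14809 and 12922 CPM in RAS replicates 2 and 3, and 2349 to 2567 CPM in Sham.

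Many genes known from other kidney cells had wide gaps between the groups. Clu, which encodes clusterin and is induced in injured tubules, stood at 30.0, 2668 and 1973 CPM in RAS and 0 to 0.743 CPM in Sham, and lay outside the Sham range in RAS replicate 1 as well. Muc1, an epithelial mucin, stood at 3.32, 154 and 134 CPM against 0 to 0.212 CPM, Cldn8, a claudin of the collecting duct, at 1.61, 221 and 181 CPM against 0 to 0.688 CPM, and Atp6v0d2, a proton pump subunit, at 7.28, 114 and 104 CPM against 0 to 0.955 CPM. Slc4a1, the anion exchanger of red cells and acid-secreting intercalated cells, had 16, 1221 and 1062 counts in RAS and none in Sham, at least 1167-fold higher with the floor of 3 counts over the Sham group. Rhcg, an ammonia transporter of the collecting duct, had 14, 2967 and 2342 counts in RAS and 2 over all Sham libraries, a ratio of 4143 with a 95% counting interval of 1146 to 34215. Sytl2, Gem and F2r had the same order, with F2r, the thrombin receptor, at 14.1, 50.5 and 58.5 CPM against 0.125 to 1.91 CPM. Collecting duct principal cell markers summed to 14.8, 1760 and 1312 CPM in RAS and 2.00 to 6.51 CPM in Sham.

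Of 10 general epithelial markers tested, 7 rose without overlap, among them Epcam, Krt18, Krt19 and Elf3. Epcam stood at 4.93, 217 and 159 CPM in RAS and 0.125 to 1.80 CPM in Sham. Among distal tubule and principal cell genes, Calb1, Slc12a3 and Gata3 rose, and Gata3, at 10.1, 41.9 and 39.1 CPM against 0 to 0.433 CPM, is also a T cell factor. Of 8 thick ascending limb markers, only Tmem52b was outside the Sham range in all RAS libraries, since Sham replicate 3 held 119 CPM of Umod, the uromodulin gene, against 59.5 CPM in RAS replicate 1. Of 11 fibroblast and pericyte markers 5 rose, led by Col1a1 at 7.28, 85.1 and 106 CPM against 1.32 to 4.22 CPM and Col3a1 at 18.3, 135 and 171 CPM against 5.76 to 12.6 CPM. Of 10 endothelial markers, Pecam1, Flt1 and Ehd3 rose. Ehd3, known from glomerular endothelium, differed from the others by being even, at 14.6, 11.8 and 10.8 CPM against 0.0529 to 0.865 CPM.

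T and NK cell genes rose most in RAS replicate 1, although the study's gate removed cells stained for CD3 and NK1.1. Of 13 tested, 12 rose and Cd4, which macrophages also express, fell. Il2rb, the interleukin-2 receptor beta chain, stood at 142, 21.5 and 23 CPM in RAS and 0.212 to 1.06 CPM in Sham (log2 fold change 6.29 ± 0.86, adjusted p = 0.0158). Nkg7, a cytotoxic granule gene, stood at 123, 11 and 12.4 CPM against 0.250 to 0.974 CPM, and Lck, the T cell receptor kinase, at 89.2, 12.9 and 9.13 CPM against 0.635 to 1.00 CPM. All 3 RAS libraries were above all Sham libraries for each of these, replicate 1 by far the most. Gimap4 and Gimap6, GTPases of lymphocytes, had the same order, with Gimap6 at 70.9, 33.1 and 25.6 CPM against 1.13 to 3.35 CPM. Ncr1, the NK cell receptor NKp46, had 262, 55 and 45 counts in RAS and 1 over all Sham libraries, a ratio of 563 with a 95% counting interval of 100 to 22316. All 4 erythroid genes tested rose, and of these Hba-a1, Hba-a2 and Alas2 were highest in replicate 1, with Hba-a1 at 276, 110 and 86.3 CPM against 26.4 to 63.4 CPM. Hba-a1 and Hba-a2 are near-identical copies that can share reads, and Slc4a1 was highest in RAS replicates 2 and 3.

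Single markers of other myeloid cells were mixed. Of 11 dendritic cell genes, Zbtb46, Ccr7, Cd24a and Kit rose and Flt3 fell, and Zbtb46, Cd24a and Kit were highest in RAS replicates 2 and 3. Of 11 monocyte genes, Plac8 and Fn1 rose and Chil3 fell. Of 6 neutrophil genes only Mmp9 rose, and the summed list was 79.3 to 151 CPM in RAS and 99.8 to 125 CPM in Sham. Of 5 B and plasma cell genes none was called, with Cd79b at 65.2, 26.4 and 27.8 CPM in RAS and 81.8 to 126 CPM in Sham and Jchain at 373, 50.5 and 52.2 CPM and 331 to 442 CPM. Of 9 injured tubule genes, 6 rose and Hspa1a fell.

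In CD11chi and CD11clo macrophages, edgeR's quasi-likelihood test called 0% of 12739 and 0% of 12301 genes. At an unadjusted p under 0.05 there were 1247 and 1102 genes, and DESeq2 called 188 and 107. Each population was compared with its own Sham libraries. The labels do not say whether same-numbered libraries of different populations came from the same kidneys, and the main tests do not pair them. Il1a, at a log2 fold change of 4.45 in KRM, had 2.65 in CD11chi and 2.82 in CD11clo macrophages, where it stood at 16, 152, 230 and 473 CPM in RAS and 21.8 to 44.5 CPM in Sham. Cxcl9 had 1.59, 1.74 and 1.24, and Serpina3g 2.17, 1.63 and 1.20. In CD11chi macrophages Cxcl9 stood at 40.8 to 111 CPM in RAS and 19.3 to 28.2 CPM in Sham, and Serpina3g at 61.6 to 83.7 CPM and 13.3 to 27.2 CPM, without overlap. Ctse had -3.72, -3.04 and -2.95 and Fkbp5 -1.81, -1.41 and -1.43, but in both other populations the Sham libraries of these genes spread widely, Ctse from 15.3 to 402 CPM in CD11clo. Ccl8 had 5.52, 0.69 and 4.13. None of these was called in the monocyte-derived populations (adjusted p from 0.508 to 0.846). In CD11chi macrophages Ccl8 stood at 43.9, 61.6, 9.69 and 5.09 CPM in RAS and at 4.48, 2.42 and 45.3 CPM in Sham, so that CD11chi Sham replicate 3 alone reached the higher RAS levels. That library also held 169 CPM of Clu and 50.5 CPM of Rhcg, against at most 3.59 and 0.421 CPM in the other CD11chi Sham libraries. The part of that RNA in the Ccl8 values was not tested.

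**Figure D5:**
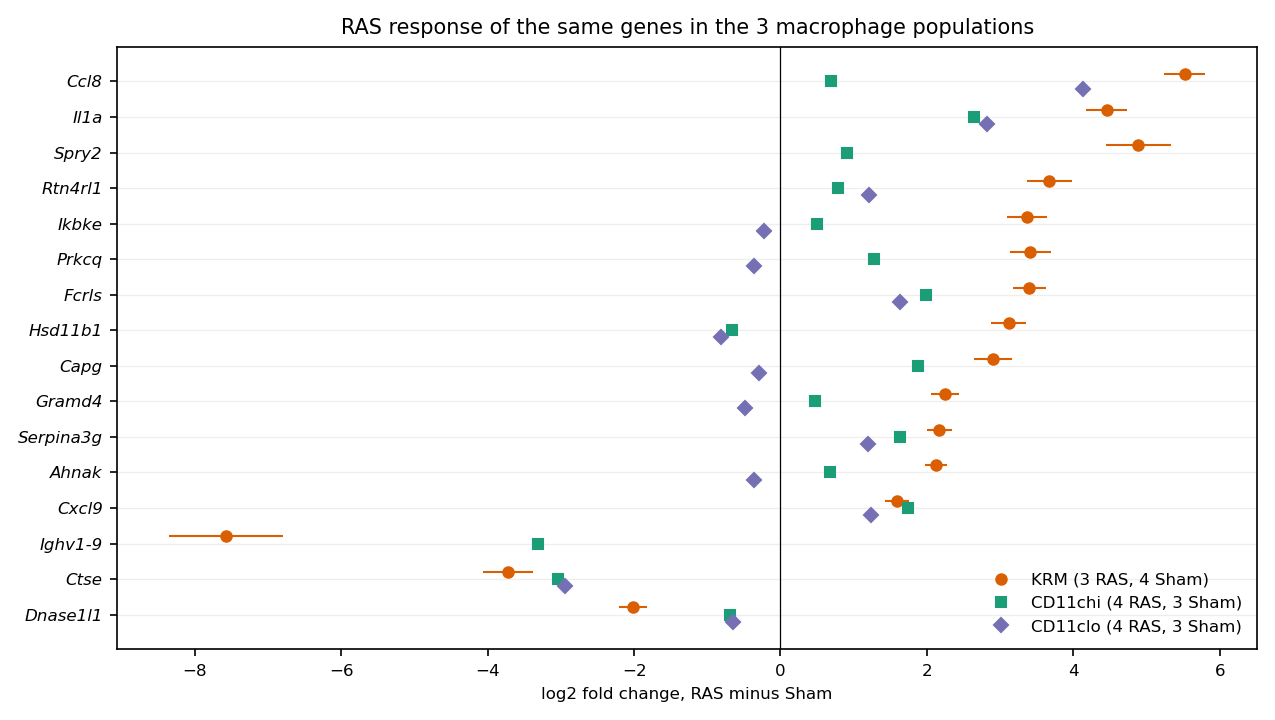
Log2 fold change of RAS minus Sham for the 16 genes in KRM (orange circles with SE), CD11chi (green squares) and CD11clo macrophages (violet diamonds), for the genes tested in each. Il1a, Serpina3g, Cxcl9 and Ctse lie on the same side of 0 in all 3 populations, while Ikbke, Capg, Ahnak and Hsd11b1 lie above 0 in KRM and below 0 in CD11clo macrophages.

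The difference in RAS response was tested as an interaction. Between KRM and CD11chi macrophages 0% of 14137 genes were called by edgeR, with 3000 at an unadjusted p under 0.05 and 1221 called by DESeq2. Without KRM RAS replicate 1 edgeR called 1097, without CD11chi RAS replicate 1 it called 58 and without KRM Sham replicate 3 it called 1. Between KRM and CD11clo macrophages 34 of 13877 genes (0.245%) were called, 31 with a higher and 3 with a lower response in KRM, and 32 of them were among the 1103 genes. Without KRM Sham replicate 1, 2 or 3, or with Sham replicates 1 and 2 summed, none was called, and without KRM RAS replicate 1 there were 2357. A block for replicate number left 2. Leaving out KRM RAS replicate 2 or 3 or KRM Sham replicate 4 left 2, 1 and 4 calls, leaving out CD11clo RAS replicate 4 or CD11clo Sham replicate 1 or 2 left 1, 3 and 2, and leaving out CD11clo RAS replicate 1 gave 181. Ikbke had the smallest adjusted p, with a log2 fold change of 3.37 in KRM and -0.22 in CD11clo macrophages, a difference of 3.54 (adjusted p = 0.00912). Its level in CD11clo macrophages was 38.1 to 79.4 CPM in RAS and 55.0 to 76.4 CPM in Sham, above every KRM library. Hsd11b1 differed by 3.86 (adjusted p = 0.0136), Capg by 3.14 (0.0251) and Ahnak by 2.42 (0.0446), and each stood higher in Sham CD11clo than in RAS KRM libraries, Ahnak at 1367 to 1932 CPM and Capg at 397 to 488 CPM. For these 4 genes the RAS KRM levels lay between those of Sham KRM and Sham CD11clo macrophages. Bhlhe40 differed by 5.42 (adjusted p = 0.0377) and C3 by 3.36 (0.0377), both with the highest KRM levels in RAS replicates 2 and 3.

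The direction of the even genes in the other populations was counted without a test, beside 43.5% of all genes higher in RAS in CD11chi and 47.2% in CD11clo macrophages. Of the 340 even higher genes, 229 of 324 tested were also higher in RAS in CD11chi and 159 of 298 in CD11clo macrophages. Of the 218 even lower genes, 171 of 208 were also lower in CD11chi and 82 of 197 in CD11clo macrophages. Of the 82 genes highest in RAS replicate 1, 73 of 80 were higher in CD11chi and 48 of 57 in CD11clo macrophages. CD11chi RAS replicate 1 was likewise the highest CD11chi library for T and NK cell genes, with Il2rb at 92.2 CPM against 15.2 to 21.0 CPM in the other CD11chi RAS libraries and 1.47 to 4.00 CPM in CD11chi Sham, and the part of this RNA was not tested.

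At the edge of the criterion of no overlap, with predicted gene models and similar names set aside, Aktip and Wwtr1 were just inside. Aktip stood at 31.7, 104 and 90.2 CPM in RAS and 19.96 to 31.7 CPM in Sham, RAS replicate 1 lying just above the highest Sham library, and Wwtr1, a transcriptional co-activator of the Hippo pathway, at 5.25, 59.0 and 49.6 CPM against 1.06 to 5.24 CPM. Igsf5 and Jag2, a Notch ligand, were called but just outside, Igsf5 at 4.18, 42.4 and 31.9 CPM against 0.318 to 4.18 CPM. Among the lower genes every call was without overlap. The narrowest gaps among the 220 of them left after setting those names aside were in Zmym6 and Smox. Zmym6 stood at 42.0, 30.4 and 31.5 CPM against 44.1 to 71.5 CPM, and Smox at 101, 60.1 and 67.2 CPM against 113 to 153 CPM.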

How the data were processed

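F4/80+CD64+ macrophages were sorted on a BD Aria III, and libraries were made with a Clontech Ultra Low-Input kit and Nextera XT, which do not mark strand, so overlapping and antisense genes cannot be told apart. The authors aligned reads to mm10 and deposited each library as estimated counts per gene, with 8739635 to 18592427 counts per KRM library. A second deposited table holds the authors' quantile-normalized TPM on a log2 scale. Its column for KRM RAS replicate 1 correlated with the counts of that library at only 0.0902 after centring each gene, and which column is right is not known. The counts were used, and the log2 table served as an alternative. No column of per-sample values was left unmapped.

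The 37620 lines were summed to 34236 gene names and rounded. Genes were kept by filterByExpr (minimum count 10, minimum total 15), scaled by TMM and tested with edgeR's quasi-likelihood test (edgeR 4.0.16, R 4.3.3) with Benjamini-Hochberg adjustment, RAS against Sham within KRM, and as an interaction against each other population. CPM values are TMM-scaled. Tests were checked on simulated data. DESeq2 1.42.0 and limma 3.58.1 gave alternatives, besides other scalings and filters and the omission of each library. Genes were named by a rule: the 15 widest gaps between groups and the 5 largest folds in each direction at a mean log2 CPM of at least 4, up to 4 called members of each list or up to 2 abundant members where none was called, genes the study names, and genes at the edge of overlap. The members and lists were chosen with earlier results of these data known. Floors use 3 counts over the group, and intervals cover counting error only. Some values of listed genes are not reported here.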

Additional observations from a re-analysis of the deposited data

Results flagged for a closer look

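Among 166 genes and 44 summed lists, 14 had a library far from the other 3 within the Sham group, and chance alone gives about 1 in 20 groups. The 14 were 9 of the genes, near the share that chance gives, and 5 of the lists. Sham replicate 3 was high for summed proximal tubule markers (4680 CPM against 1110 to 1230 in the others), thick ascending limb (288 against 8.60 to 11.1), distal convoluted tubule (11 against 2.12 to 2.63) and general tubule epithelium (102 against 16.1 to 18.9), and for Cdh16, a kidney cadherin, at 68.5 CPM against 7.46 to 8.49. Sham replicate 4 was low for summed T and NK cell markers at 84.0 CPM, most of it Cd4, for Cd4 itself at 77.9 CPM and for Fabp5 at 1.91 CPM, and high for Col3a1 at 12.6 CPM. Sham replicate 1 was low for Nrp1 at 124 CPM, Ltbp3 at 2.63 CPM and Tlr7 at 86.5 CPM, and high for Fcgr4 at 482 CPM and Fth1 at 7200 CPM.

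The RAS response differed between KRM and CD11clo macrophages by the interaction test for 17 of the genes followed here. Among all 13877 genes tested, 34 were called (0.245%). Some of the 17, such as Dusp5, S100a10 and Emid1, are in none of the lists and were not named by the rule. The count of 17 is therefore not a share of genes chosen beforehand. The difference in log2 fold change was 3.54 for Ikbke, 3.86 for Hsd11b1, 3.14 for Capg, 2.42 for Ahnak, 2.55 for Fam102a, 3.47 for Dusp5, 3.77 for S100a10, 2.97 for Pde2a and 3.71 for Rnf125. It was 3.36 for C3, 1.85 for Cfp, 2.26 for Fabp5, 5.42 for Bhlhe40, 6.58 for Emid1, 6.56 for Cd24a and 8.94 for Ncr1, and for Tmbim1 it was -1.49. In KRM, C3, Bhlhe40 and Cd24a were highest in RAS replicates 2 and 3 and Ncr1 in RAS replicate 1. The part of RNA of other cells was not tested. Adjusted p-values by edgeR's quasi-likelihood test ran from 0.00912 for Ikbke to 0.0488 for Fabp5 and Tmbim1. None was called with Sham replicates 1 and 2 summed, and the fitted differences of Emid1 and Ncr1 depend on the prior count, since they had 2 and 1 counts over all Sham KRM libraries.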

How the results depend on the processing

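Counts follow as higher and lower. Genes called (998 and 249) numbered 2461 higher when scaled by the macrophage list, 547 higher with at least 10 counts in every library, 157 lower in 1 fit over all 6 groups, 2045 and 1122 by DESeq2, 1105 and 1494 by limma on the log2 table, 2853 and 4501 by limma without its RAS replicate 1 column, 154 and 20 for RAS replicate 1 alone against Sham, and 35 and 6 with Sham replicates 1 and 2 summed. Leaving out 1 library gave 22 to 3960 higher and 4 to 3111 lower. Called genes without overlap (854 and 249) numbered 1892 higher by the macrophage list, 455 higher under the stricter filter, 152 lower over 6 groups, 1025 lower by DESeq2, 1493 lower by limma, 2852 and 4498 without that column, 154 and 20 for RAS replicate 1 alone and 35 and 6 with the Sham pair summed, and leaving out 1 library gave 22 to 3960 and 4 to 3096. Genes without overlap (1740 and 1589) numbered 1035 lower by total library size, 3325 and 538 by the macrophage list, 3161 lower by limma, 3561 and 5698 without that column, 3046 and 3190 for RAS replicate 1 alone, and 1761 to 5047 and 1722 to 4329 leaving out 1 library. Genes past a fold of 2 at an unadjusted p under 0.05 (1742 and 362) numbered 2624 and 149 by the macrophage list, 3382 higher with no filter, 918 and 213 under the stricter filter, 1653 lower by limma, 2097 lower without that column, 578 and 160 for RAS replicate 1 alone, and 1316 to 3172 and 218 to 1377 leaving out 1 library.

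RAS and Sham replicate numbers did not pair: deviations of same-numbered libraries correlated at 0.144, -0.209 and 0.273. With a block for replicate number, 39 and 3 genes were called, 37 and 3 of them without overlap, and the interaction with CD11clo macrophages had 2 calls. That interaction (34 calls) had 59 with median-of-ratios size factors, 77 with total library size, 1419 by DESeq2, 0 with the Sham pair summed and 0 to 2357 leaving out 1 library. The interaction with CD11chi macrophages (0 calls) had 1221 by DESeq2 and 0 to 1097 leaving out 1 library. DESeq2 called 188 genes in CD11chi and 107 in CD11clo macrophages, where edgeR called 0. Since the 1103 genes were chosen for separation in these counts, their direction in other fits of the counts is largely fixed. Limma on the log2 table gave the opposite sign for 12 of 992, or 3 without the RAS replicate 1 column. Alas2 turned to -0.0795 in limma, and Ctgf, called but overlapping, turned to -0.95 for RAS replicate 1 alone. The causes were not tested.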
